A study of Rattus norvegicus with 12 samples.

Results

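Optn and Uvrag are both genes of autophagy, the process by which a cell encloses its own proteins and organelles in a membrane and passes them to the lysosome. The table of circular RNAs (circRNAs) from rat liver lists 21876 entries from 6120 host genes, and 19 of them come from these genes: 6 from Optn and 13 from Uvrag. The genes were chosen by name, and their entries were those written under the gene's symbol plus those written under an Ensembl identifier that shared a transcript record or a back-splice junction with it. An entry is a back-splice junction, the point where the end of an exon is joined to the start of an exon upstream of it, and its value is the number of reads across that point. No measured value enters that rule, but the genes were picked with earlier results of these data known. Their rank by reads, and the contrast with other autophagy genes, are therefore descriptions.

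All animals were wild-type Wistar rats in which diabetes had been induced by 4 weeks on a diet with 60% of calories as fat, then a single streptozotocin injection of 35 mg/kg after a 16 h fast. Rats with a fasting glucose above 16.7 mmol/L were kept. The 5 sham libraries came from such rats after a sham operation, the 5 sleeve gastrectomy (SG) libraries from rats 3 months after removal of part of the stomach, and the 2 relapse libraries from rats whose diabetes came back after the same surgery. The labels give no age, and no sampling time for the sham and relapse rats. Nor do they tie each library to its own animal; p-values here therefore rest on differences among libraries, some of which may be technical. Surgery is known to improve glucose control in diabetes. The study asked how liver circRNAs differ after it.

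The liver RNA had been depleted of ribosomal RNA and digested with RNase R, which removes linear RNA. Libraries held 18176 to 37229 back-splice reads, and levels are given as reads per 1000000 of these (RPM), so they are shares of the circRNA pool. Each entry is counted at 1 junction, so no value is scaled by length. The tissue label was checked against marker genes through their circRNAs: 11 of 12 hepatocyte markers had reads, and Ttr was at 0. Summed over that list, the level was 37112 to 56613 RPM in sham, 38080 to 49409 RPM after SG and 31993 to 33281 RPM in relapse, so both relapse libraries lay below all others; the part of this in the comparisons with relapse was not tested. No read came from the 6 cholangiocyte or the 10 pancreas and gut markers. Kupffer cell markers had reads for 3 of 8 genes, stellate cell markers for 4 of 9 and endothelial markers for 4 of 7. The circles of a gene need not follow its messenger RNA, so a marker at 0 says little about that RNA.

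Optineurin, the protein of Optn, is an autophagy receptor. It binds ubiquitin on damaged mitochondria, bacteria or protein aggregates and also binds the LC3 family on the growing autophagosome membrane, and the kinase TBK1 strengthens both contacts. Human OPTN mutations cause forms of glaucoma and amyotrophic lateral sclerosis. The protein of Uvrag joins Beclin 1 and the class III phosphoinositide 3-kinase in the complex that acts on endosomes and on the maturing autophagosome, and it binds the tethering proteins that bring these vesicles to the lysosome. A circRNA forms when the spliceosome joins a downstream splice site back to an upstream one. Most circRNAs have no known function, and a circle's level need not follow that of its gene's messenger RNA or protein, neither of which is measured here.

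Optn made, in these livers, nearly a single circle. The entry circRNA538 joins exon 3 back to exon 2 of the transcript ENSRNOT00000042881 on the plus strand of chromosome 17, from 77176705 to 77178100 in the Rnor_6.0 build. It held 1628 of the 1637 Optn reads, or 99.45%. Among the 82 host genes with at least 500 reads, the most read circle held a median of 75.8% of its gene's reads, and Optn ranked 4th. The start coordinates of these entries equal the listed end of the flanking intron, so they may be counted from 0. All coordinates here are as deposited.

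The other 5 Optn entries held 1 or 2 reads each, 9 in all, and lay further downstream, between exons 4 and 12. None of them shared an end with circRNA538. Of these 9 reads, 7 were in SG libraries, 1 was in a sham and 1 in a relapse library, too few to compare the groups.

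**Figure D1:**
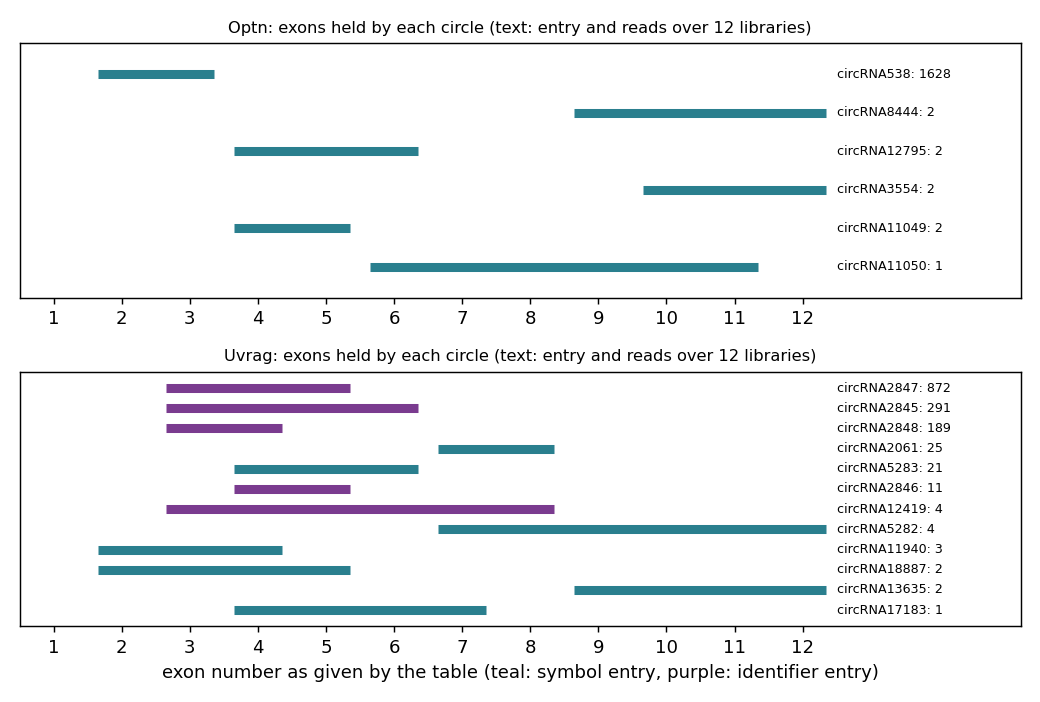
Exons held by each exonic circle of Optn (upper panel, 6 entries) and Uvrag (lower panel, 12 entries); the horizontal axis is the exon number the table gives, and the text beside each bar gives the entry and its reads over the 12 libraries. Optn reads sat almost wholly on exons 2 to 3, and the 3 most read Uvrag circles began at exon 3 and ended at exon 4, 5 or 6.

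The exon 2 to 3 circle was among the most abundant circRNAs of the liver. It ranked 11th of all 21876 entries and stood between 7th and 21st in each library. It was read in all 12. In the sham libraries 1 to 5 it had 193, 89, 126, 114 and 86 reads. In the SG libraries 1 to 5 it had 127, 109, 114, 141 and 188 reads, and in the relapse libraries 105 and 236. As a share of the circRNA pool these counts were close: the 12 values ran from 3998 RPM in sham 5 to 6558 RPM in sham 3, with the SG and relapse values inside that range.

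Its level varied the least among the 30 most read entries. The SD of circRNA538 over the 12 libraries was 14.3% of its mean, against a median of 27.0% and a range of 14.3 to 270.0% among the 30 most read entries. Counting error alone would give 8.59%. This is a description over all libraries and groups.

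**Figure D2:**
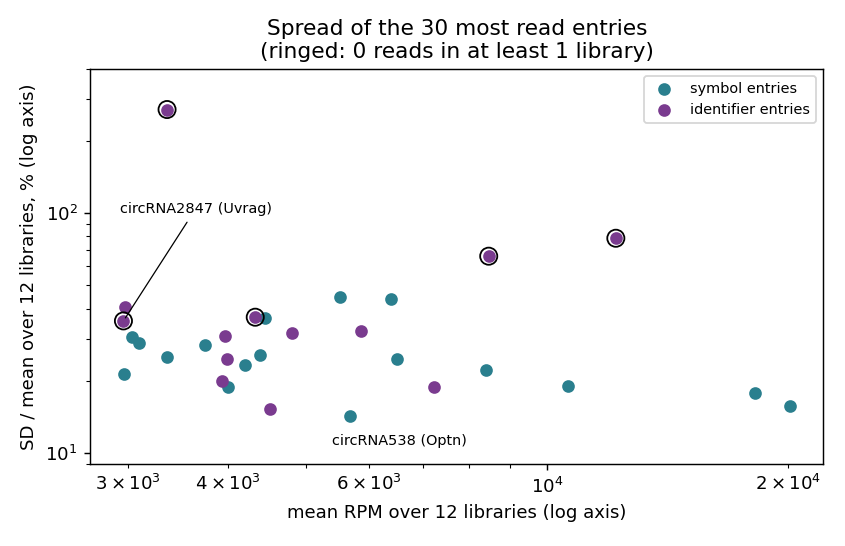
SD divided by mean over the 12 libraries (vertical, log axis, percent) against mean RPM (horizontal, log axis) for the 30 most read entries. Teal points are entries under a gene symbol, purple points entries under an identifier or intergenic entries, and a ring marks 0 reads in at least 1 library. circRNA538 of Optn has the lowest ratio, 14.3%, and circRNA2847 of Uvrag, at 35.6%, is 1 of 5 ringed entries, all of which are purple.

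Few host genes passed the test between any of the groups, and this is the background for Optn and Uvrag. At an adjusted p under 0.05, edgeR called 2 of 1333 hosts for SG against sham (0.15%), 1 for relapse against SG (0.075%) and 3 for relapse against sham (0.225%). DESeq2 called 0, 0 and 2 hosts, and limma-voom 0, 0 and 4. Of the 1519 single circRNAs tested, edgeR, DESeq2 and limma-voom called 0 in each comparison (0.0%), with 59, 73 and 88 at an unadjusted edgeR p under 0.05. With each of the 12 libraries left out in turn, edgeR called 0 to 2, 0 to 2 and 1 to 5 hosts in these comparisons. A gene that was not called is thus like nearly all hosts, and 0 of the totals of Optn and Uvrag were called.

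Optn host totals did not differ between the groups beyond the spread of the libraries. Summed over its circles, Optn stood at 5522 ± 1082 RPM in sham (SD, n = 5), 5765 ± 676 RPM after SG (SD, n = 5) and 6025 ± 482 RPM in relapse (SD, n = 2). The ranges of the 3 groups overlapped in every pairing. In edgeR's quasi-likelihood test over 1333 hosts, the log2 fold change after SG against sham was 0.08 (SE 0.20), with a 95% interval of -0.33 to 0.48. On a linear scale that interval runs from 0.796-fold to 1.40-fold. Relapse against SG gave 0.08 (SE 0.27) and relapse against sham 0.16 (SE 0.27). With library sizes taken from the authors' SRPBM the 3 values were 0.22, 0.20 and 0.42, and the median over all tested hosts moved from 0.03, -0.01 and 0.01 to 0.17, 0.09 and 0.26. The Benjamini-Hochberg adjusted edgeR p was 0.994, 0.996 and 0.994 in that order without SRPBM.

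No Optn comparison passed the exact two-sided permutation test on RPM. Its permutation p was 0.683 for SG against sham, 0.714 for relapse against SG and 0.762 for relapse against sham, each 0.762 when adjusted over the 6 comparisons of the pair of genes. With 5 against 5 libraries the smallest p possible is 0.00794, and with 2 against 5 it is 0.0476. After adjustment a relapse comparison can be under 0.05 only if all 6 comparisons have a p of 0.0476 or lower. The adjusted test could therefore hardly pass for relapse, and its outcome there says little. The same limit holds for the permutation tests of Uvrag and of circle shares below. These tests do not show that the levels are equal. The interval above rests on an SE computed back from the F-test. It does not reach a 2-fold change of the Optn circle pool in either direction after SG, but it leaves room for smaller ones.

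**Figure D3:**
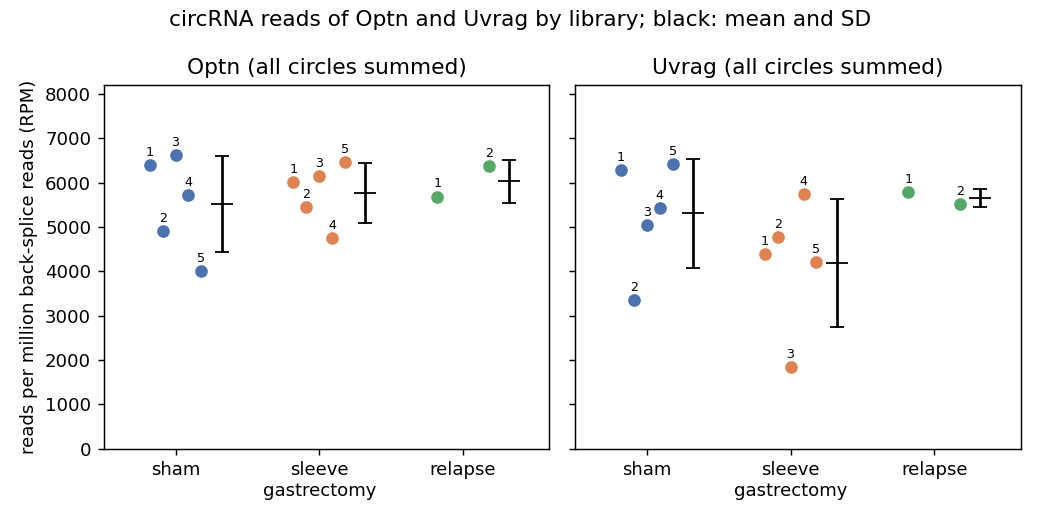
Summed circRNA level of Optn (left) and Uvrag (right) in RPM by group; each point is a library, numbered by replicate, and black bars show the mean and SD of the group (5, 5 and 2 libraries). Optn lies between 3998 and 6610 RPM with all groups overlapping; Uvrag lies between 1834 and 6416 RPM, with SG 3 and sham 2 lowest.

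Uvrag was nearly as abundant a source of circRNA as Optn but spread its reads over several circles that share a start. Its 13 entries held 1428 reads, and it ranked 12th of the host genes where Optn ranked 9th. The transcript is ENSRNOT00000022176 on the minus strand of chromosome 1. The most read circle, circRNA2847, joins exon 5 back to exon 3, from 164046102 to 164064815, and held 872 reads. Next came circRNA2845, exons 3 to 6 from 164025518 to 164064815, with 291 reads. circRNA2848, exons 3 to 4 from 164055294 to 164064815, held 189. By the listed exons these circles differ only in how many exons follow exon 3. Their spliced lengths by the listed exon ends are 195, 269 and 351 bases for exons 3 to 4, 3 to 5 and 3 to 6. Only reads across the junction are counted, so the exons inside each circle were not measured.

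Exon 3 of Uvrag is short, 34 bases by the listed ends, and 4 of the 12 exonic Uvrag circles began there. They held 95.0% of Uvrag reads, with 94.8% in sham, 95.0% after SG and 95.2% in relapse by pooled reads. Across the 16070 exonic entries written under a gene symbol, 22.1% of entries, with 37.1% of the reads, began at exon 2, as the Optn circle does. Exon 3 began 12.6% of them, with 12.4% of the reads. Intron 2, upstream of the Uvrag circles, spans 10309 bases, and the introns that follow exons 4, 5 and 6 span 9118, 20502 and 48672 bases.

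Of the 3, the exon 3 to 5 circle was the most read in 11 of 12 libraries, all but SG 3, and the order of the totals held in 8. Sham 2 had no reads of the exon 3 to 6 circle. In sham 1 and SG 4 the exon 3 to 4 circle was above the exon 3 to 6 circle, by 41 to 39 and by 24 to 22 reads.

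The exon 3 to 5 circle had 107, 50, 60, 63 and 89 reads in sham 1 to 5. It had 54, 53, 0, 117 and 84 in SG 1 to 5, and 64 and 131 in relapse. The 11 libraries with reads stood between 2552 and 4138 RPM, so SG 3 was apart from all others. At the pooled level of the other 4 SG libraries it would have held 56.4 reads of this circle. The limit that a count of 0 allows there, 3 reads, is 162 RPM; such limits and the Wilson intervals given here cover counting error only.

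The exon 3 to 6 circle had 39, 0, 19, 25 and 27 reads in sham 1 to 5. It had 21, 27, 20, 22 and 19 reads after SG and 27 and 45 in relapse. Here sham 2 was the library at 0, where the pooled level of the other 4 sham libraries would give 22.0 reads, and the others lay between 651 and 1462 RPM. The exon 3 to 4 circle was read in every library, with 41, 4, 9, 17 and 13 reads in sham, 11, 17, 10, 24 and 13 after SG, and 12 and 18 in relapse. It was highest in sham 1 and lowest in sham 2, and its groups overlapped.

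**Figure D4:**
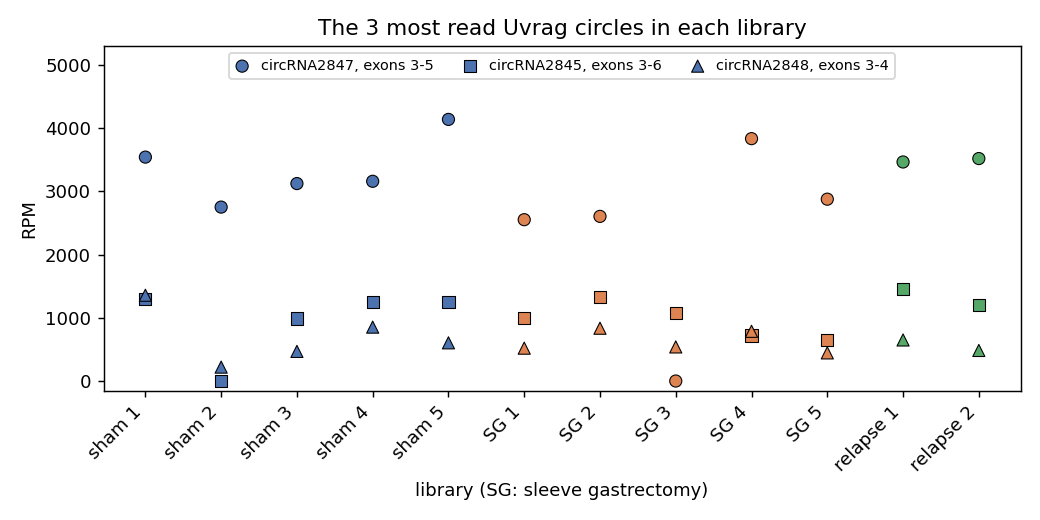
Level in RPM (vertical) of the 3 most read Uvrag circles in each of the 12 libraries (horizontal); circles, squares and triangles mark exons 3 to 5, 3 to 6 and 3 to 4, and colour marks the group. The exon 3 to 5 circle is highest in every library except SG 3, where it is at 0, and the exon 3 to 6 circle is at 0 in sham 2.

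No other entry of the table had both ends within 10 bases of either missing circle. Zeros of this kind went with how the entry was written. Of the 1428 Uvrag reads, 95.9% were in its 6 entries under the identifier ENSRNOG00000016206, which include all 3 main circles. In the counts over all genes that follow, identifier entries also include intergenic entries, which have no host gene. Among entries with a median of at least 20 reads, 22 of 39 identifier entries had a library at 0, or 56.4%, against 3 of 102 symbol entries, or 2.94%. Single reads went the other way: they made up 1.68% of the values above 0 in identifier entries and 38.1% in symbol entries, and 0 of the 40 such Uvrag values. All Optn entries are written under the symbol. The part of this in the Uvrag values was not tested.

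The smaller Uvrag circles with at least 10 reads began at exon 4 or exon 7. circRNA2061, exons 7 to 8, had 25 reads in 8 libraries, with 10 in sham, 13 after SG and 2 in relapse. circRNA5283, exons 4 to 6, had 21 reads in 7 libraries, of which 7 were in relapse 2. circRNA2846, exons 4 to 5, had 9 reads in 3 sham libraries, 2 in relapse 1 and 0 in the 5 SG libraries, where 3 reads would be 98.3 to 162 RPM. None of these passed the filter on low counts, so none was tested. The remaining 7 entries held 1 to 4 reads each, 19 in all. They include the circle with the widest span, circRNA12419, with exons 3 to 8 and 4 reads in a single SG library. The only entry listed as intronic, ciRNA623, had 3 reads in a single relapse library. Its span, 164046102 to 164058282, takes in exons 4 and 5 by the listed ends, so it does not lie within a single intron.

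Summed over its circles, Uvrag stood at 5305 ± 1233 RPM in sham (SD, n = 5), 4188 ± 1441 RPM after SG (SD, n = 5) and 5649 ± 202 RPM in relapse (SD, n = 2). By library the sham values were 6289, 3356, 5049, 5415 and 6416 RPM. The SG values were 4395, 4766, 1834, 5734 and 4212 RPM, and those of relapse 5792 and 5506 RPM. The lowest value was SG 3, the library with no exon 3 to 5 circle, and SG 4 stood above 3 of the 5 sham libraries and inside the relapse range. The Uvrag SD over the 12 libraries was 26.8% of the mean, against 14.1% for Optn. These libraries include SG 3 and sham 2, each with a main Uvrag circle at 0. Without them the Uvrag SD was 747 RPM around a mean of 5357 RPM.

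None of the 3 comparisons passed the test for Uvrag. The log2 fold change was -0.31 (SE 0.23, 95% interval -0.77 to 0.15) for SG against sham, with 1 of 5 SG libraries above the sham mean. It was 0.42 (SE 0.30, interval -0.18 to 1.02) for relapse against SG and 0.11 (SE 0.30) for relapse against sham, and the edgeR adjusted p was 0.994, 0.996 and 0.994. The exact two-sided permutation p on RPM was 0.246, 0.238 and 0.762, or 0.738, 0.738 and 0.762 when adjusted over the 6 comparisons. These comparisons share their libraries, so they are not independent of each other.

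The SG values rested in part on the library at 0. The SG mean minus the sham mean was -1117 RPM with all libraries and -528 RPM without SG 3 alone. In the edgeR fit, leaving out SG 3 moved SG against sham to -0.16 and relapse against SG to 0.20 on the log2 scale. Leaving out SG 4 moved SG against sham to -0.49, and leaving out sham 2 moved it to -0.47. Without sham 2 and SG 3 together, a choice made after seeing the data, the group means were 5792 ± 666 RPM in sham (SD, n = 4) and 4777 ± 679 RPM after SG (SD, n = 4). The highest SG library of these, 5734 RPM, still lay above the lowest sham library, 5049 RPM. The spread over the remaining 10 libraries fell to 747 RPM around a mean of 5357 RPM.

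The 4 circles of these genes that passed the filter were tested singly. circRNA538 of Optn had a log2 fold change of 0.06 (SE 0.20) for SG against sham, 0.08 for relapse against SG and 0.14 for relapse against sham. For circRNA2847 the same comparisons gave -0.43 (SE 0.70), 0.51 and 0.08, and for circRNA2845 they gave -0.04 (SE 0.53), 0.50 and 0.46. circRNA2848 gave -0.19 (SE 0.41), -0.17 and -0.36. The edgeR adjusted p-values lay between 0.974 and 1.0. Without sham 2 and SG 3 the SG against sham values were -0.18 (SE 0.26) for circRNA2847 and -0.37 (SE 0.34) for circRNA2845. For circRNA2847, SG against sham and relapse against SG were -0.12 and 0.19 without SG 3 alone, -0.70 and 0.76 without SG 4, and -1.37 and 1.46 with limma-voom.

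The share of the most read circle within each gene did not pass its test in any comparison either. The most read circle held 99.8 ± 0.352% of Optn reads in sham, 99.0 ± 1.22% after SG and 99.8 ± 0.298% in relapse (SD, n = 5, 5 and 2). For Uvrag the share of the exon 3 to 5 circle was 64.6 ± 10.2% in sham, 49.6 ± 28.3% after SG and 61.9 ± 2.89% in relapse (SD, same n). The exact two-sided permutation test gave an adjusted p of at least 0.971 in all 6 comparisons.

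In single libraries the Uvrag share was 0 of 34 reads in SG 3, with a Wilson 95% interval of 0 to 10.2%, and 82.0% in sham 2, with an interval of 70.5 to 89.6%. The other 10 libraries lay between 54.6 and 68.3%. Without those 2 libraries the shares of the exon 3 to 5 circle were 60.2 ± 3.64% in sham and 62.0 ± 6.65% after SG (SD, n = 4 each). The exon 3 to 6 circle then held 20.7 ± 1.69% in sham, 19.6 ± 6.91% after SG and 23.6 ± 2.32% in relapse. The exon 3 to 4 circle held 14.0 ± 5.88%, 13.4 ± 3.03% and 9.998 ± 1.72% in the same order.

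Other autophagy genes made far fewer circle reads. Of 83 listed genes, without Optn and Uvrag, 53 had reads, 1070 in all, fewer than Optn alone. Of them, 8 passed the filter on low counts, and 0 of these 8 passed the test in any comparison, by edgeR with Benjamini-Hochberg adjustment. Over all 1333 tested hosts, 0.15%, 0.075% and 0.225% passed. The median log2 fold change of the 8 was -0.17 for SG against sham, -0.06 for relapse against SG and 0.35 for relapse against sham. Over all tested hosts it was 0.03, -0.01 and 0.01. In that order 3, 4 and 4 of the 8 were above 0. For relapse against sham the 8 values ran from -2.17 to 1.59, with 4 below 0, so that median marks no common direction. The lowest unadjusted edgeR p of these hosts was that of Atg10 in relapse against SG, 0.0397, with an adjusted p of 0.996.

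By role, the regulators of the kinase with which the Uvrag protein works had the most reads. Mtmr3, a phosphatase that removes the lipid this kinase makes, had 209 reads from 13 circles, with 676 ± 579 RPM in sham, 798 ± 314 RPM after SG and 593 ± 226 RPM in relapse (SD, n = 5, 5 and 2). Ambra1, which binds Beclin 1, had 110 reads and stood at 477 ± 317, 382 ± 210 and 202 ± 96.4 RPM in the same groups. Its log2 fold change for relapse against sham, -1.28 (SE 0.77), had an edgeR adjusted p of 0.894.

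Among receptors and adaptors, the role of Optn itself, the only tested host was Wdfy3, a large scaffold for the clearance of protein aggregates, with 86 reads from 16 circles. It stood at 240 ± 114 RPM in sham, 355 ± 278 RPM after SG and 432 ± 231 RPM in relapse (SD, n = 5, 5 and 2), with overlapping groups. Ulk2, a kinase that starts autophagy, had 32 reads from 14 circles. Its log2 fold changes were 1.13 (SE 1.27) for SG against sham and 0.46 (SE 1.51) for relapse against SG.

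Of the genes that supply membrane, Tmem41b, a lipid scramblase, had 55 reads from 1 circle and Atg2b, a lipid transfer protein, 27 reads from 3 circles. Tmem41b gave -0.28 (SE 0.82) for SG against sham on the log2 scale, and Atg2b -0.06 (SE 1.34). Vps41, a subunit of the tethering complex at the lysosome, had 34 reads and a log2 fold change of -1.25 (SE 1.25) in that comparison and 2.08 (SE 1.48) for relapse against SG. Atg10, an enzyme that helps to join ATG12 to ATG5, had 18 reads, 8 of them in a single sham library, 1 after SG and 9 in a single relapse library. Its fold change is thus set by 2 libraries.

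**Figure D5:**
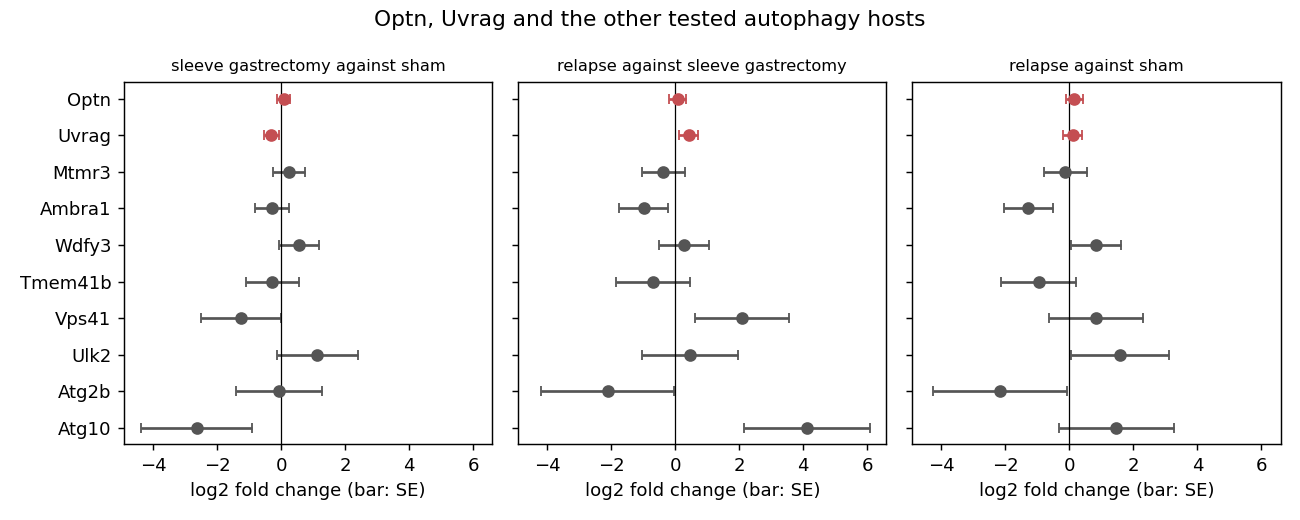
Log2 fold change (horizontal, points, with SE bars) of Optn, Uvrag (red) and the 8 other tested autophagy hosts (grey) in the 3 comparisons from the edgeR fit. Optn and Uvrag, the most read, have the smallest errors, 0.20 to 0.30, while Atg10, with 18 reads, has an SE of 1.74 or more.

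The direct partners of both proteins had far fewer circle reads than Optn or Uvrag. Those of Optn held 53 in all, against 1637 for Optn, and those of Uvrag 99, against 1428. For Optn, 6 of 9 listed partners had reads: Tbk1, the kinase that acts on optineurin, had 18, the huntingtin gene Htt 16, the receptor Tax1bp1 12, Tbc1d17 5, and Myo6 and Ripk1 1 each. Rab8a, Rab8b and Cyld were at 0. For Uvrag, 7 of 9 had reads: the tether subunits Vps11 and Vps33a had 37 and 28, Becn1, which encodes Beclin 1, 14, the inhibitor Rubcn 10, the kinase gene Pik3c3 8, and Pik3r4 and Vps16 1 each. Sh3glb1 and Vps18 were at 0. None of these 18 genes was among the tested hosts, which were 1333 of the 6120 host genes. The levels of the 18 were not compared between groups.

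Across the 12 libraries Pearson's r of the log2 CPM of Optn and Uvrag was -0.08 and Spearman's rho -0.04. The lowest Uvrag totals, 1834 RPM in SG 3 and 3356 RPM in sham 2, are from the libraries with a main circle at 0. With 12 libraries these values do not show that the genes vary apart. Among the other 1332 tested hosts, those most like Optn were LOC361985 (r = 0.81, rho = 0.71), ENSRNOG00000000895 (r = 0.80, rho = 0.64) and Clasp2, which encodes a microtubule-binding protein (r = 0.75, rho = 0.74). Those most like Uvrag were Gsap (r = 0.86, rho = 0.71), Egfr, the receptor of epidermal growth factor (r = 0.86, rho = 0.80), and Kif13b, a kinesin (r = 0.81, rho = 0.34). These are the highest of many values over libraries that share depth and groups, and they are given as a description. In whole liver a lower level could mean fewer cells of a type or less of the RNA per cell, and these cannot be told apart.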

How the data were processed

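Liver circRNAs of 12 rat libraries were analysed from a table of back-splice junctions. Per the labels' protocols, RNA was depleted of ribosomal RNA, digested with RNase R and sequenced as paired, strand-marked libraries. Per the submitters' processing notes, cutadapt 1.9, FastQC and TopHat2 2.0.10 and the build Rnor_6.0 were used; the circRNA caller is not given in the sources used here. The deposited table holds raw read counts per entry and a normalised signal, SRPBM, made by the authors, which is the count times 1 constant per library. Counts were used, and SRPBM entered only as an alternative scale.

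Identifier entries were joined to a symbol by shared transcript record or junction, for 1350 of 1696 identifiers. Of the 21068 junctions, 808 had 2 entries, which were summed; no Optn or Uvrag junction did. Counts were summed per host and per junction and tested over all hosts or junctions with edgeR 4.0.16 in R 4.3.3 (TMM, filterByExpr with a minimum count of 5 and total of 15, quasi-likelihood F-test, 12 libraries in 1 fit, Benjamini-Hochberg, 0.05), checked on simulated data. RPM and circle shares were compared by exact permutation tests (Python 3.11.15). Alternatives used DESeq2 1.42.0 and limma 3.58.1, other scalings and filters, and left-out libraries.

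The genes and lists were chosen with earlier results of these data known. Named were circles with at least 10 reads, the 2 most read tested autophagy hosts per role, and the 3 hosts most correlated with each gene; the partners of both genes are named by their list. Same-numbered libraries of different groups did not deviate together (r from -0.09 to 0.04), so numbers were not taken as pairs. Low counts also pull r toward 0, so this check could miss a link.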

Additional observations from a re-analysis of the deposited data

Results flagged for a closer look

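In 41 groups of 5 libraries, the gap of the highest or lowest library to its neighbour was compared with Dixon's critical value of 0.710. Chance passes it in about 1 in 20 groups of independent normal values, a rate that does not hold for low or tied counts as here. Where all other libraries are tied, as for the Optn share and both Atg10 values below, any difference passes. In all, 7 values passed. Of these, 3 concern the Uvrag circles at 0. circRNA2845, exons 3 to 6, was at 0 RPM in sham 2 against 989 to 1291 RPM in the other sham libraries. The same 0 counts again as its share of Uvrag reads there, 0% against 19.6 to 23.1%. The share of circRNA2847, exons 3 to 5, was 0% in sleeve gastrectomy 3 against 54.6 to 68.3% in the others.

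The most read Optn circle held 99.2% of the gene's reads in sham 3 and 100% in the other sham libraries, a difference of 1 read. Ulk2 stood at 250.7 RPM in sham 4 against 0 to 46.5 RPM in the other sham libraries. Atg10 stood at 401 RPM in sham 4 and 0 in the other sham libraries, and at 34.2 RPM in sleeve gastrectomy 5, which is 1 read, with 0 in the others of that group.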

How the results depend on the processing

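No Optn or Uvrag total, circle, RPM value or share, and no other autophagy host, passed its test under any alternative tried. Log2 fold changes near 0 changed sign with the setting. Uvrag totals depended on the identifier entries: with symbol entries only, which keep few Uvrag reads, SG against sham became -0.0009, relapse against SG -0.34 and relapse against sham -0.34, and with host names as written -0.02, -0.33 and -0.35. On the RPM scale, symbol entries gave -48.1 for relapse against SG and -64.9 for relapse against sham. Depth limits what these tests can resolve: counting error alone gives an SD of 8.56% of the mean for Optn and 9.17% for Uvrag.

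Without sham 2 and SG 3 together, chosen after seeing the data, SG against sham for Optn was -0.000447 on the log2 scale and -8.74 RPM. Relapse against sham for Uvrag was then -0.067 and -142.9 RPM. The main circle's share of Uvrag reads then differed by 1.71, -0.106 and 1.61 percentage points for SG against sham, relapse against SG and relapse against sham. From the pooled reads of all libraries, relapse against sham differed by 0.379 points.

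With SRPBM scaling, Uvrag totals were -0.15, 0.49 and 0.34 for SG against sham, relapse against SG and relapse against sham, with the median of all hosts at 0.17, 0.09 and 0.26. circRNA2847 was -1.37 and 1.46 with limma-voom for the first pair of comparisons. circRNA2845, SG against sham, was 0.53 with limma-voom, 0.087 with the replicate block and 0.036 with SRPBM scaling. circRNA538, relapse against SG, was -0.010 with a minimum count of 10. Replicate numbers were not taken as pairs here. Under the replicate block, circRNA2847 in relapse against sham was -0.088 and 1 host was called for SG against sham.

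For SG against sham, 0 hosts were called with DESeq2, limma-voom, a minimum count of 10, SRPBM scaling, host names as written, the 2 groups alone and without sham 2 and SG 3, and 1 with symbol entries only. Relapse against SG gave 0 under those settings and with symbol entries only, and 2 with no filter. For relapse against sham, 1 was called with a minimum count of 10, symbol entries only, SRPBM scaling, host names as written and the 2 groups alone.

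With each library left out in turn (a lone relapse library is then taken to vary like the other groups), hosts called ranged from 0 to 2, 0 to 2 and 1 to 5 in the order SG against sham, relapse against SG, relapse against sham. In that order Optn totals ranged from -0.036 to 0.124, -0.117 to 0.224 and -0.064 to 0.280, and Uvrag totals from -0.493 to -0.156, 0.204 to 0.554 and -0.069 to 0.137. Optn in RPM ranged from -137.5 to 515.5 for SG against sham and -81.4 to 600.7 for relapse against SG, and Uvrag from -1604 to -528, 873 to 1848 and -142.9 to 622.1. The Optn share ranged from -0.264 to 0.157 for relapse against sham; the Uvrag share from -19.7 to -2.63, -0.106 to 17.0 and -4.80 to 1.61. circRNA538 ranged from -0.015 to 0.164, -0.226 to 0.225 and -0.146 to 0.300, circRNA2845 from -0.337 to 0.142 for SG against sham, circRNA2847 from -0.701 to -0.117, 0.194 to 0.764 and -0.133 to 0.179, and circRNA2848 from -0.401 to 0.271 for SG against sham and -0.573 to 0.065 for relapse against sham.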
